A study of Mus musculus with 4 samples.

Results

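Isl1, Etv1 and Prox1 are 3 transcription factor genes of the 29161 genes counted in single cells from mouse intestinal enteroids. They were chosen for their level in cells with a peptide hormone, so their values in those cells are given as a description. The question was which single hormone each gene accompanies. A cell was placed by any of 7 hormone genes (Cck, Gip, Gcg, Ghrl, Sst, Nts, Pyy) at 1000 CPM (counts per 1000000 counts of the cell) or more, and set against cells with Tph1, the serotonin-synthesis enzyme gene, at 200 CPM or more. Of 290 cells, 52 held at least 1 hormone at that level, 94 were Tph1-high without one, and 144 held neither and are called hormone-poor. The enteroids were grown from female CD1 mice heterozygous for a Neurog3eYFP reporter allele, which marks cells that have switched on the endocrine determinant Neurog3, and all 4 groups of cells carried it. Plate 1 held duodenum cells from a mouse aged 39 weeks, plates 2 and 3 duodenum cells at 12 weeks, and plate 4 jejunum cells at 12 weeks. All were kept in medium with R-spondin-1, EGF and noggin. Living eYFP-positive cells were sorted at 1 cell per well, with 92 cells and 4 empty wells per plate, so only cells with reporter signal were seen. The labels do not say whether the plates came from separate animals, so p-values over plates measure the spread between these plates.

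Enteroendocrine cells are rare hormone-releasing cells of the gut epithelium. They arise from Neurog3-positive progenitors and mature either into serotonin-making enterochromaffin cells or into cells that make peptides such as cholecystokinin (Cck), the incretins GIP and GLP-1 (Gip and Gcg), ghrelin (Ghrl), somatostatin (Sst), neurotensin (Nts) and peptide YY (Pyy). Isl1 is a LIM-homeodomain factor known for its role in pancreatic islet and gut endocrine differentiation. Etv1 is an ETS-domain factor of the PEA3 group, a family acted on by ERK signalling. Prox1 is a prospero-type homeodomain factor, best known from lymphatic endothelium, liver and pancreas.

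The 250 bases upstream of a RefSeq-listed start of each gene are shown because the 3 genes were chosen for a shared pattern and the endocrine determinants Neurog3 and Neurod1 are basic helix-loop-helix factors, a class that binds E-boxes. Capitals mark the E-box CANNTG, a motif that reads the same on both strands. All 3 genes were matched in the RefSeq promoter table of GRCm38.p6, where Isl1 has 1 listed start and Etv1 and Prox1 have 2 each, and the first was printed.
Isl1: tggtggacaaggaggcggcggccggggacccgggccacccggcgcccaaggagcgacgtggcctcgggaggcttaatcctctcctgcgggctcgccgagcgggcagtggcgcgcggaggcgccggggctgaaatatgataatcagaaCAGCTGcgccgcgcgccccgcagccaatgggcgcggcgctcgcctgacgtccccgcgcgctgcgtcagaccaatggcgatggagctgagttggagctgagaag
Etv1: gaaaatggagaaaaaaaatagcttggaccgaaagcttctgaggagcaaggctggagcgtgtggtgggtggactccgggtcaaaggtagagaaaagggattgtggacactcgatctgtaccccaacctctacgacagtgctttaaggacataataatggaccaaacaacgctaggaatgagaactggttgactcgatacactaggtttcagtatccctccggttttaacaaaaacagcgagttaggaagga
Prox1: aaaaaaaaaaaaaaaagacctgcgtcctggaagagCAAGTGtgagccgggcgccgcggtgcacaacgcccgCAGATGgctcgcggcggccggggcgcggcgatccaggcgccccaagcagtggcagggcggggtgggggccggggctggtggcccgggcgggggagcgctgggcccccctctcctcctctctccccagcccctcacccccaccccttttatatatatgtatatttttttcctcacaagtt
The Isl1 window (chr13:116309689-116309938, minus strand) held 1 E-box, CAGCTG. The Etv1 window (chr12:38779832-38780081, plus strand) held 0, and lies inside the annotated gene but outside its exons. The Prox1 window (chr1:190170828-190171077, minus strand) held 2, CAAGTG and CAGATG. Of 32851 promoters of the same length, 66.2% held at least 1 E-box and 31.8% at least 2, and the counts for Etv1 and Prox1 differed with the start: the window of the second listed start held 3 for Etv1 (chr12:38783461-38783710) and 0 for Prox1 (chr1:190169516-190169765). Annotated exons covered 241 of the 250 bases of the second Etv1 window and 118 of the 250 of the second Prox1 window. In the annotation of GRCm38 all 3 genes are protein coding. Isl1 (ENSMUSG00000042258) lies at chr13:116298281-116309689, Etv1 (ENSMUSG00000004151) at chr12:38779380-38870484 and Prox1 (ENSMUSG00000010175) at chr1:190118035-190170714.

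The plates held 72, 83, 72 and 63 cells, with 23893272, 38265093, 37699098 and 46490618 counts in all and 202711 to 2312044 counts in a cell. Hormone cells were uneven over plates, with 3, 23, 10 and 16 in plates 1 to 4. Of the 52, 32 held exactly 1 hormone (16 Cck, 10 Ghrl, 4 Gip, 1 Pyy, 1 Sst) and 20 held 2 or more, and Gcg and Nts were never found alone. The 20 cells had a median of 582017.5 counts and the 32 a median of 439779. In 3 Cck cells Tph1 was also high. Tuft cell markers summed to at most 0.1 CPM in the hormone cells without Tph1 of any plate. Goblet cell markers summed to 1307 to 7500 CPM in those cells, to 512 to 1168 CPM in Tph1-high cells, and to 23054 to 28649.9 CPM in the 97 hormone-poor cells with at least 3 of 16 goblet or Paneth markers at 200 CPM. That rule is a loose one, since 25 of the 49 hormone cells without Tph1 and 11 of the 94 Tph1-high cells also met it. Plate 1 stood apart in a way that touches Isl1: it listed 7 genes at 0 (Gcg, Gip, Gmnn, Gng4, Isl1, Krt20 and Scg3) that reached 30 CPM or more in each other plate, of 3582 such genes, while plates 2, 3 and 4 listed 0.

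**Figure D1:**
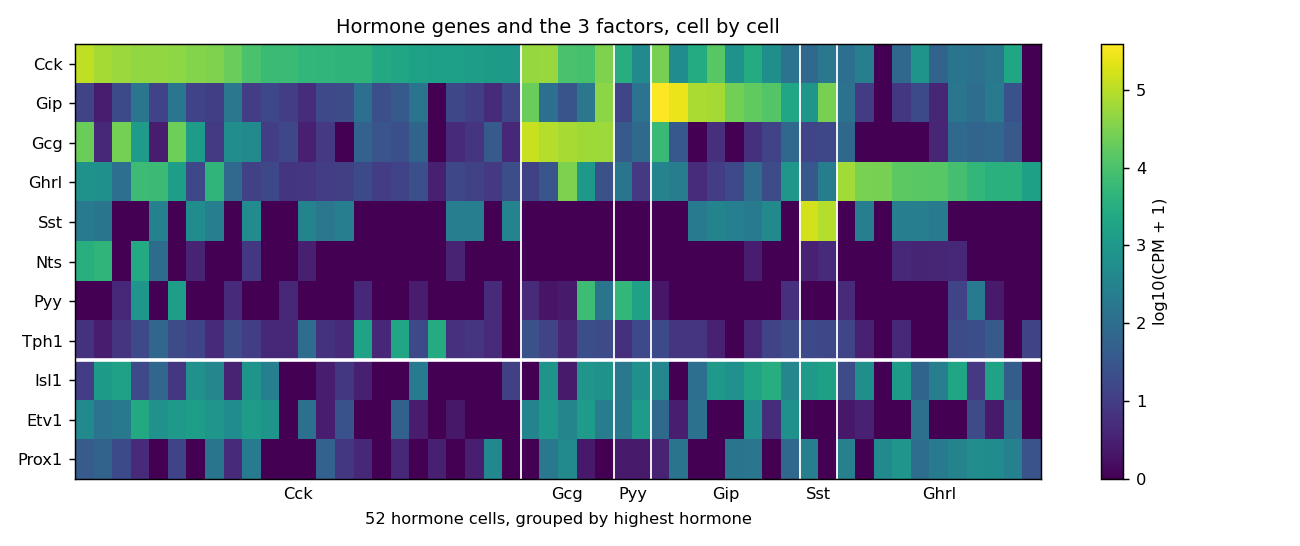
Level of the 7 hormone genes, Tph1, Isl1, Etv1 and Prox1 as log10(CPM + 1) in the 52 hormone cells, 1 column a cell, grouped by the highest hormone. Etv1 is bright under all Gcg and Pyy columns, Prox1 under most Ghrl columns, and Isl1 under most Gip, Sst and Ghrl columns.

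Isl1 accompanied Gip, Sst, Ghrl and combinations of hormones, and was low in most cells with Cck alone and in Tph1-high cells. It had at least 5 counts in 32 of 52 hormone cells (61.5%, exact 95% interval 47.0 to 74.7) and 50 CPM or more in 28. In Tph1-high cells, the class with the least Isl1, 1 of 94 had at least 5 counts (1.06%, 0.03 to 5.79), and the highest level was 6.95 CPM. Plate 1, where Isl1 was listed at 0 in every cell, gave 20 of the 94 and some of the 52. The median depth was 506893.5 counts in hormone cells and 482197 in Tph1-high cells. The intervals treat cells as independent draws and do not cover the spread between plates. Counts may also include PCR copies.

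Both Sst cells, which came from the same plate, had high Isl1, at 1062 and 1465 CPM, and the higher one also held Gip. The 4 cells with Gip alone had 3008, 676, 0 and 393 CPM, and the cell at 0, from plate 3, had the highest Gip of the 4 (264562 CPM). Over every cell with Gip, 9 of 11 had 50 CPM or more. Among cells with more than 1 hormone, all 3 Cck and Gip cells (106, 1069 and 1829 CPM) and all 3 Cck and Gcg cells (685, 778 and 1614 CPM) were high. The 3 cells with Cck, Gip and Gcg had 0, 376 and 715 CPM. The 3 cells with Cck and Ghrl had 44.3, 68.5 and 376 CPM. Isl1 was low in 4 of the cells that added a hormone other than Gip to Cck and Gcg. A cell with Ghrl added had 1.53 CPM, a cell with Nts 9.40 CPM, a cell with Ghrl and Nts 15.9 CPM and a cell with Ghrl and Pyy 6.67 CPM. The cell with Pyy alone added was high at 811 CPM, so a high Gcg level came with and without Isl1.

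In the 10 cells with Ghrl alone, Isl1 ran from 0 to 1946 CPM with a median of 151. By plate, the 2 cells of plate 1 were listed at 0, the 4 of plate 2 had 62.6, 239, 613 and 1104 CPM, and the 4 of plate 4 had 7.64, 19.1, 1648 and 1946 CPM. Plate 4 thus split into a low and a high pair. The 16 cells with Cck alone ran from 0 to 772 CPM with a median of 0.92, and 3 reached 50 CPM, 1 in each of plates 2, 3 and 4. The 16 include the 3 Cck cells with high Tph1, which had at most 2.09 CPM. Cells with Cck alone also had less Cck: their Cck ran from 1072 to 21420.5 CPM with a median of 3339, and 7 of 16 were below 2000 CPM, while the 19 cells with Cck and another hormone ran from 1941 to 112797 CPM with a median of 32838, and 1 was below 2000 CPM. Goblet markers summed to 98.3 to 14356 CPM over plates in cells with Cck alone and to 3391 to 5331 CPM in cells with 2 or more hormones. Enterochromaffin markers summed to 397 to 7556 CPM and to 531 to 1692 CPM. The part of these differences in the values of the 3 genes was not tested.

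Summed within plates 2, 3 and 4, Isl1 was at 721, 460 and 479 CPM in cells with 2 or more hormones, at 104, 52.4 and 52.7 CPM in cells with Cck alone, and at 64.7, 11.8 and 118 CPM in hormone-poor cells. In Tph1-high cells it was at 1.81, 0.34 and 1.89 CPM. The sums of cells with 2 or more hormones lay above those of cells with Cck alone in each of these plates, and the Cck and hormone-poor sums overlapped. The sums for Gip alone (1342, 0 and 393 CPM) and Ghrl alone (489 and 744 CPM in plates 2 and 4) overlapped with each other and with 2 or more hormones. In plate 3 a single cell with Cck and Gcg held 67.0% of all Isl1 counts. In a sum, fewer cells with a gene and less of its RNA per cell cannot be told apart.

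**Figure D2:**
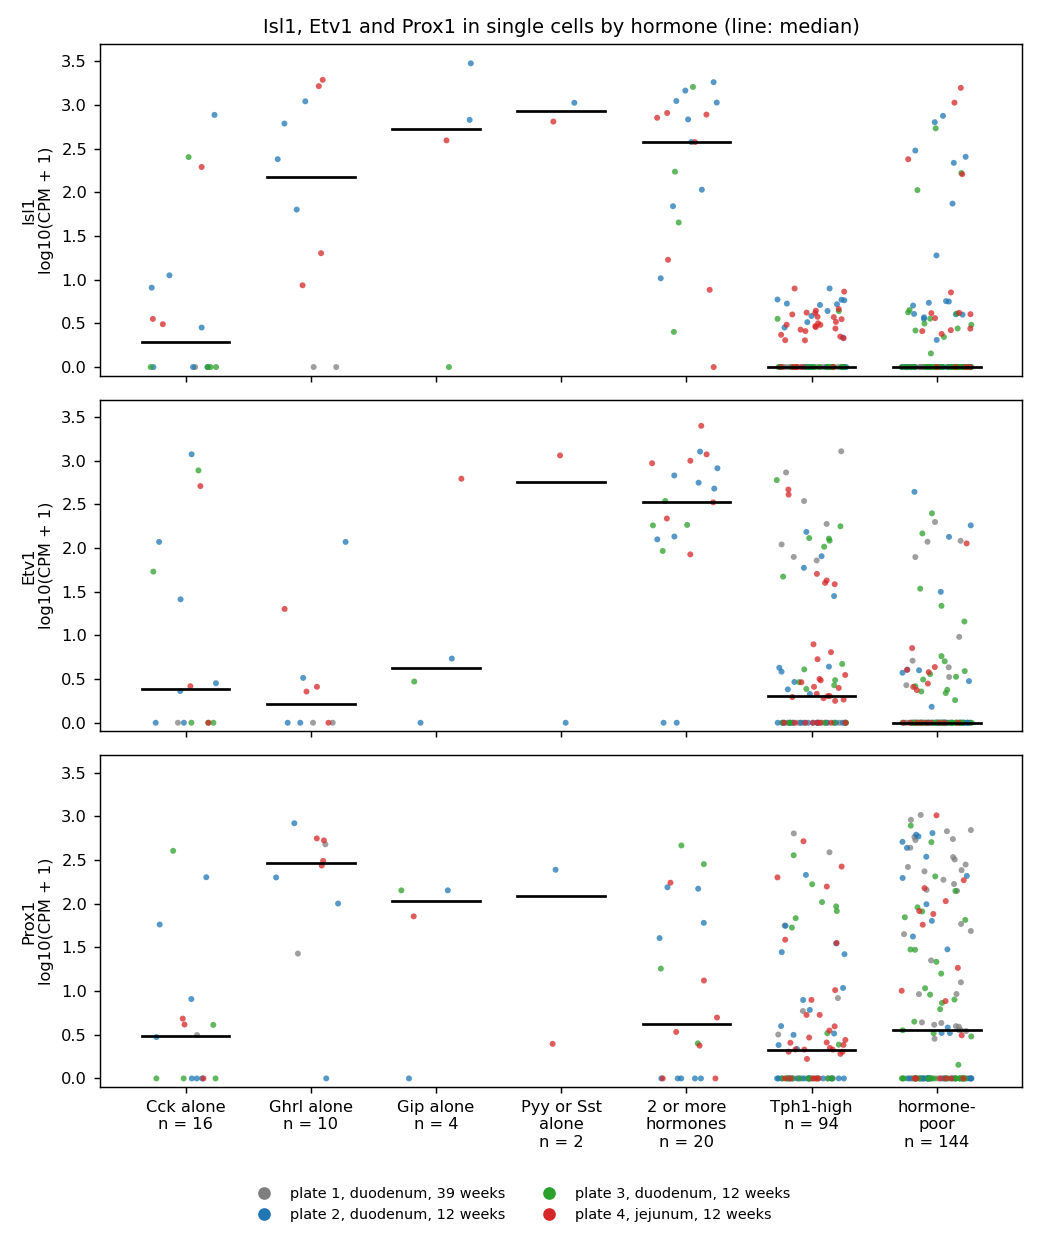
Isl1, Etv1 and Prox1 as log10(CPM + 1) in each of 290 cells by class, coloured by plate, with the median as a line. Isl1 stays below 10 CPM in all 94 Tph1-high cells, Etv1 is high in most cells with 2 or more hormones, and Prox1 is spread widely in hormone-poor cells.

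Isl1 also marked a few hormone-poor cells. It had 50 CPM or more in 13 of 144, 6 in plate 2, 3 in plate 3 and 4 in plate 4, with 1575 CPM at most. Of the 144, 49 were from plate 1, where Isl1 was listed at 0 in every cell. None of the 13 had Etv1 at 50 CPM, and 3 had Prox1. Their median Neurog3 was 0 CPM, and 1 had more than 500 CPM of Neurog3. Pax6, an endocrine paired-box factor, summed to 120, 44.4 and 46.7 CPM in the 13 cells of plates 2, 3 and 4, against 5.03, 0.69 and 3.26 CPM in the other hormone-poor cells. It was higher in each plate, and was singled out after its values were seen. Of the 13, 1 had Ghrl above 500 CPM and 2 had Sst above 500 CPM, all in plate 2. Sst was at 129 CPM or more in each of the 83 cells of that plate and listed at 0 in plates 1, 3 and 4, and every cell of plate 4 had at least 83.9 CPM of Gip and 67.9 CPM of Cck. Hormone levels of this size were thus present in all classes of those plates, and what carried them was not tested.

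Etv1 accompanied Pyy and cells with Cck beside another hormone, which took in every Gcg and Nts cell. It was near 0 with Ghrl alone and with Sst. It had at least 5 counts in 28 of 52 hormone cells (53.8%, 39.5 to 67.8) and 50 CPM or more in 26. All 11 Gcg cells had at least 83.7 CPM, with a median of 479 and a highest value of 2513. The 4 Pyy cells had 181, 1000, 1150 and 1184 CPM. The 3 Nts cells had 135, 479 and 2513 CPM, and 2 of them were also Gcg cells. All 11 Gcg cells and all 3 Nts cells also held Cck, so for Etv1 these hormones cannot be told apart from Cck. The Pyy cell at 1150 CPM held Pyy alone, and the other Pyy cells held Cck too. Both Sst cells were at 0.

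Among Cck cells, those with another hormone had more Cck, as given above, and more often had Etv1. With Cck alone, 5 of 16 cells had 50 CPM or more of Etv1, the median was 1.46 CPM and the highest value 1186 CPM. With 2 or more hormones, 18 of 20 cells did, with a median of 339 CPM. The exceptions were 1 cell with Cck and Gip and the cell with Gip and Sst, both at 0. Ghrl cells split likewise. In the 10 cells with Ghrl alone Etv1 ran from 0 to 117 CPM with a median of 0.64, and 1 cell passed 50 CPM. The 6 cells with Ghrl beside Cck had 91.8, 345, 678, 820, 1000 and 2513 CPM, all above 50 CPM. The 4 cells with Gip alone had 4.43, 0, 1.96 and 622 CPM, so 1 was high.

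In the 52 hormone cells, log2(CPM + 10) of Etv1 had a Pearson correlation of 0.62 with Cck, 0.51 with Gcg and 0.34 with Pyy after each plate's mean was removed. These are descriptions over 52 cells that share 4 libraries and differ in depth. The same measure was 0.55 between Prox1 and Ghrl and -0.42 between Prox1 and Cck. For Isl1 the value was 0.25 with Gip and 0.24 with Sst.

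**Figure D3:**
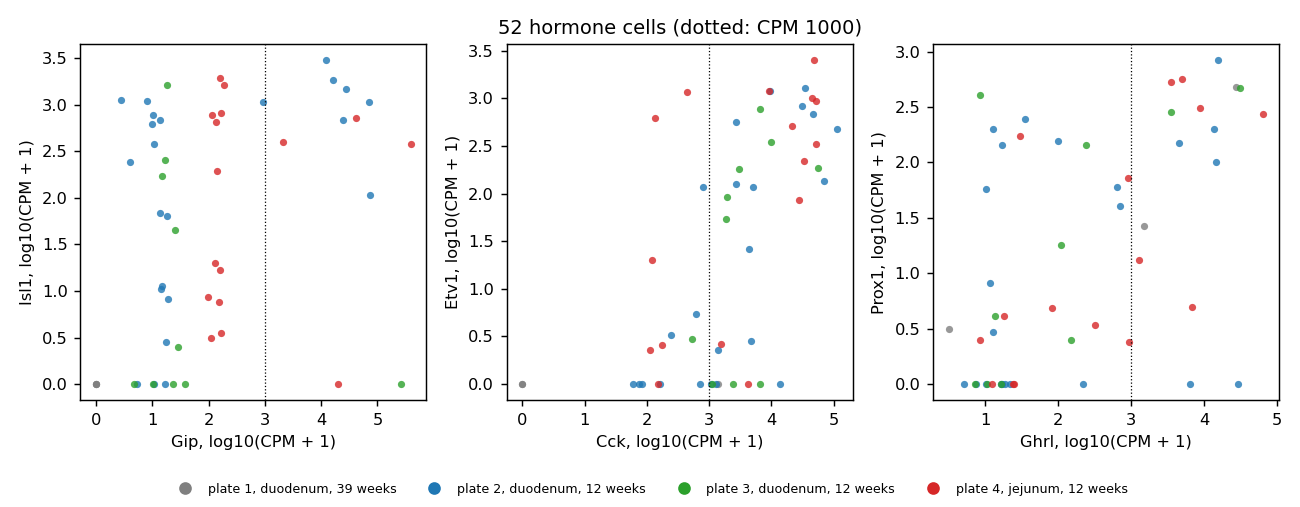
Isl1 against Gip, Etv1 against Cck and Prox1 against Ghrl in 52 hormone cells, all as log10(CPM + 1), coloured by plate, with a dotted line at 1000 CPM of the hormone. Most cells right of the Cck line have high Etv1, and Isl1 is spread over its whole range below the Gip line.

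Etv1 was not absent from Tph1-high cells. There 25 of 94 cells had at least 5 counts (26.6%, 18.0 to 36.7) and 18 had 50 CPM or more, with 1283 CPM at most. By plate 7, 3, 6 and 2 cells passed 50 CPM, and the sums were 139, 10.9, 61.6 and 27.7 CPM. Plate 1 thus had the highest sum, above its own hormone cells without Tph1, which were 2 cells at 0. Chga, the granule protein chromogranin A, summed to 12.2, 5198, 1711 and 2327 CPM in the 18 Etv1 cells of plates 1 to 4 and to 3010, 9411, 4176 and 11027 CPM in the other Tph1-high cells. It was lower with Etv1 in each plate. Tph1 itself summed to 1411, 2199, 2065 and 4531 CPM with Etv1 and to 1738, 1427, 1585 and 3165 CPM without, so the cells with Etv1 had no lack of it. Trpa1, a channel gene of enterochromaffin cells, summed to 0, 1.51, 128 and 0 CPM with Etv1 and to 60.4, 362, 255 and 142 CPM without, lower in each plate. These genes were singled out after their values were seen. Trpa1 and Tph1 are among 6 listed enterochromaffin markers, and Tph1 was higher with Etv1 in plates 2, 3 and 4 and lower in plate 1. The other markers of that list are not given here, so no general lack of enterochromaffin markers is read from Trpa1.

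In hormone-poor cells 10 of 144 had Etv1 at 50 CPM or more, with 440 CPM at most. Fev, an ETS-family factor of serotonin cells and endocrine precursors, summed to 2783, 1560, 2230 and 845 CPM in these 10 cells of plates 1 to 4 and to 326, 439, 189 and 210 CPM in the others. Fev was thus higher in each plate where Etv1 was present, a gene again singled out after its values were seen.

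Among cells with a single hormone, Prox1 accompanied ghrelin in the most cells, but it was not limited to ghrelin or to peptide-hormone cells. It had at least 5 counts in 25 of 52 hormone cells (48.1%, 34.0 to 62.4) and 50 CPM or more in 21. In the 10 cells with Ghrl alone the lowest value was 0, the median 291 and the highest 835 CPM, and 8 passed 50 CPM. By plate these cells had 25.9 and 479 CPM in plate 1, 0, 99.7, 199 and 835 CPM in plate 2, and 273, 309, 531 and 560 CPM in plate 4. Plates 1, 2 and 4 therefore each held at least 1 high ghrelin cell. Of all 16 Ghrl cells, 11 passed 50 CPM.

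With Cck alone 3 of 16 cells passed 50 CPM, with a median of 2.06 and a highest value of 403 CPM. The 4 cells with Gip alone had 0, 142, 141 and 70.8 CPM, so 3 of the 4 passed 50 CPM. The 4 Pyy cells had 1.38, 1.49, 1.52 and 12.2 CPM, so none was high. The cell with Sst alone had 244 CPM, and the cell with Gip and Sst had 0. The 3 Nts cells had 3.98, 39.5 and 59.5 CPM. Cells with Gcg summed to 22.6 to 243 CPM over 3 plates. With 2 or more hormones 6 of 20 passed, with a median of 3.20 CPM. In plate sums Prox1 was at 254, 242 and 417 CPM with Ghrl alone (plates 1, 2 and 4) and at 2.14, 36.8, 71.1 and 2.55 CPM with Cck alone (plates 1 to 4). The ghrelin sums lay above every Cck sum. Gip alone, at 101, 141 and 70.8 CPM in plates 2, 3 and 4, lay between them and overlapped with the Cck sums in its lowest plate.

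In Tph1-high cells 22 of 94 had at least 5 Prox1 counts (23.4%, 15.3 to 33.3), and 16 had 50 CPM or more, with 638 CPM at most. In hormone-poor cells 55 of 144 did (38.2%, 30.2 to 46.7), at a lower median depth of 366757 counts, and 44 had 50 CPM or more, with 1040 CPM at most. Plate sums of hormone-poor cells were 157, 110, 31.5 and 123 CPM, and those of hormone cells without Tph1 were 254, 84.6, 156 and 108 CPM. The 2 sets overlapped, so hormone-poor cells were not set apart from peptide-hormone cells by Prox1. The 44 cells included 35 of the 97 with goblet or Paneth markers. Tff3, a goblet secretory gene, summed to 10950, 19281, 13802 and 17898 CPM with Prox1 and to 12784, 10581, 10125 and 10159 CPM without, so its level was higher with Prox1 in plates 2, 3 and 4 and lower in plate 1. Its part in the result was not tested. Markers of lymphatic endothelium, which also expresses Prox1, summed to at most 4.30 CPM in any plate of the cells with goblet or Paneth markers, and to 549 CPM in the highest plate of cells with Cck alone, where Lyve1 and Pdpn were at 0. Sox4, a factor of endocrine progenitors, summed to 305, 299, 375 and 335 CPM in hormone-poor cells with Prox1 and to 151, 156, 205 and 243 CPM in those without. It was higher in each plate, and was singled out after its values were seen.

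Cells near the hormone threshold were also read. Of 9 cells whose highest hormone was 1000 to 2000 CPM, 2 had Isl1 at 50 CPM or more, 2 Etv1 and 1 Prox1. Of 17 cells with 500 to 1000 CPM and no high Tph1, 3 had Isl1, 1 Etv1 and 5 Prox1. Of all 144 hormone-poor cells, 13, 10 and 44 did. The 17 include plate 2 cells that reached 500 CPM by Sst only, such as 1 at 578 CPM, and Sst was present in every cell of that plate.

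Against Tph1-high cells of the same plate, all 3 genes were higher in sums of hormone cells without Tph1 in each of plates 2, 3 and 4, the plates with at least 3 cells of each class. Isl1 was at 554, 293 and 489 CPM against 1.81, 0.34 and 1.89 CPM. Etv1 was at 257, 179 and 492 CPM against 10.9, 61.6 and 27.7 CPM. Prox1 was at 84.6, 156 and 108 CPM against 11.8, 45.3 and 32.7 CPM. For 3 of 3 members the sums of the classes did not overlap, which 14.3% of 11542 genes shared in either direction and 5.25% with the hormone cells above. The members were chosen on this contrast, so nothing is read from that count. The mean difference in log2(CPM + 1) was 7.60 ± 0.19 for Isl1, 3.35 ± 1.60 for Etv1 and 2.06 ± 0.59 for Prox1 (SD, n = 3 plates). The Isl1 sums of Tph1-high cells lay near the added 1, so its difference and its small SD depend on that value. Etv1 varied most, with 4.44, 1.52 and 4.11 in plates 2, 3 and 4, and its mean was 4.27 without plate 3. A fibroblast list (Col1a1, Col1a2, Dcn and Vim) moved with the classes too. It summed to 0 to 302 CPM over plates in hormone cells and to 747 to 2344 CPM in Tph1-high cells. Dcn was at 0 in both classes and Col1a1 at 0 in the hormone cells. In cells with Cck alone the list summed to 144 to 2346 CPM with all but Vim at 0, so the sum need not mean fibroblasts. The part of the list in the result was not tested.

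**Figure D4:**
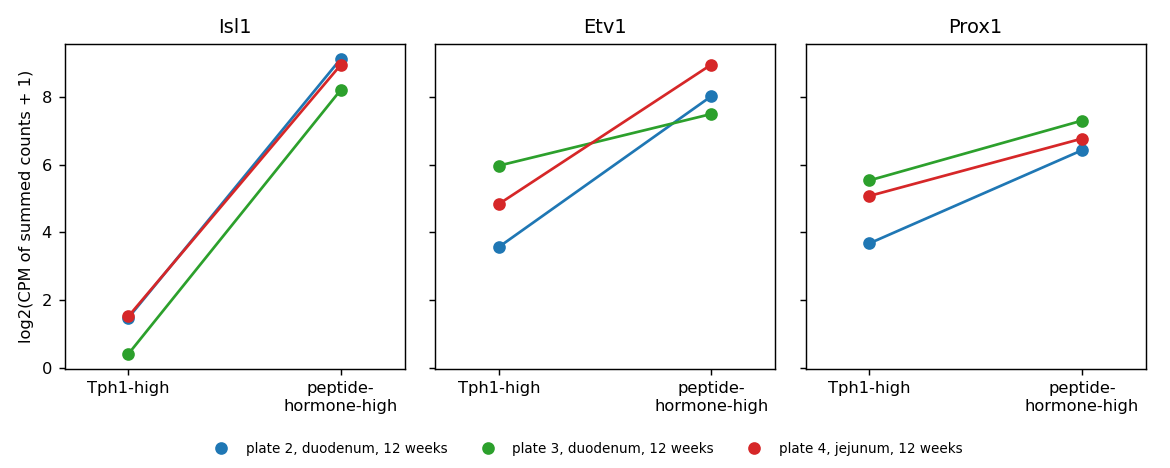
Counts summed over Tph1-high and over hormone cells without Tph1 in plates 2, 3 and 4, as log2(CPM + 1), with a line joining the classes of a plate. All 9 lines rise, least evenly for Etv1, whose plate 3 line is the flattest at 1.52. The even rise of Isl1 depends on the added 1, since its Tph1-high sums were 1.81, 0.34 and 1.89 CPM.

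At 50 CPM or more, 9 of the 52 hormone cells held none of them, 5 Isl1 only, 7 Etv1 only and 6 Prox1 only. Isl1 and Etv1 were together in 10, Isl1 and Prox1 in 6, Etv1 and Prox1 in 2, and all 3 in 7. All 9 cells with none had a single hormone, 8 of them Cck and 1 Ghrl. With 2 or more hormones 12 of 20 cells held Isl1 and Etv1 together, 4 of these with Prox1 too. With Ghrl alone 5 of 10 held Isl1 and Prox1 together, 1 of these with Etv1. No cell with 2 or more hormones held Prox1 without Etv1, but most of these cells held Etv1 and only 6 of 20 held Prox1. In Tph1-high cells 66 of 94 held none, and 6 held Etv1 and Prox1. Of 144 hormone-poor cells 0 held Isl1 with Etv1, and 49 of the 144 were from plate 1, where Isl1 was listed at 0. Only 13 of the 144 held Isl1 and 10 held Etv1, so few cells with both could be seen. No test of these combinations was run.

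Comparisons that the choice of the genes did not use were tested with edgeR's quasi-likelihood test on plate sums, with Benjamini-Hochberg adjustment over all genes tested. None of the 3 genes passed an adjusted p of 0.05 in any of them. Between hormone-poor cells with Neurog3 at 50 CPM or more (23 cells, 10 of them with Prox1 at 50 CPM) and those below, 0 of 3 members passed, as did 0.0% of 9953 genes. In this comparison 463 genes reached an unadjusted p below 0.05, while DESeq2 called 388, none of them a member. Prox1 was at 243, 66.6 and 74.2 CPM in Neurog3-high cells of plates 2, 3 and 4 and at 82.2, 22.9 and 133 CPM in Neurog3-low cells, a log2 fold change of 0.84 ± 0.86 (SE, n = 3 plates, edgeR adjusted p 0.999). It was higher in plates 2 and 3 and lower in plate 4. Plate 1, with 2 Neurog3-high cells, was not in the fit and was also lower, at 59.1 CPM against 160 CPM. Isl1 was at 31.7, 10.3 and 79.9 CPM against 71.7, 12.2 and 126 CPM, or -0.64 ± 1.01 on the log2 scale (edgeR adjusted p 0.999). Etv1 was at 25.6, 0.42 and 2.81 CPM against 15.7, 10.5 and 9.24 CPM, at -1.69 ± 2.03 (edgeR adjusted p 0.999). Each change was smaller than its error.

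Hormone-poor cells with goblet or Paneth markers were then compared with the other hormone-poor cells in all 4 plates. None of the 3 members passed, and 0.0194% of 10334 genes did. These were Guca2a and Guca2b, the guanylin and uroguanylin genes, with log2 fold changes of 8.62 and 6.97. Prox1 was at 141, 122, 45.4 and 162 CPM in the marker-high cells of plates 1 to 4 and at 228, 67.8, 11.6 and 27.6 CPM in the others, a log2 fold change of 1.32 ± 0.68 (edgeR, unadjusted p 0.0927, adjusted p 0.998). It was higher in plates 2, 3 and 4 and lower in plate 1. Isl1 was listed at 0 in both classes of plate 1 and was at 51.3, 0.42 and 60.2 CPM against 116, 28.1 and 260 CPM in the other plates, a log2 fold change of -2.69 ± 1.24 (edgeR, unadjusted p 0.0703, adjusted p 0.998). Isl1 was lower in the marker-high cells of each of these 3 plates, but not beyond the adjusted threshold. Etv1 was at 2.99, 10.9, 10.1 and 11.3 CPM against 43.2, 42.5, 6.41 and 0.34 CPM, at -0.30 ± 2.09 (edgeR adjusted p 0.998), with the plates split in direction. Without plate 1 or without plate 2 the Etv1 change was above 0 (0.98 and 0.61).

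Whole plates were compared by tissue and by age. The jejunum plate had 132 CPM of Etv1 against 50.1, 79.8 and 40.7 CPM in the duodenum plates, the highest of the 4, at a log2 fold change of 1.23 ± 0.52 (edgeR, unadjusted p 0.0493, adjusted p 0.934). Isl1 was at 143 CPM against 0, 176 and 41.1 CPM (0.97 ± 2.16, edgeR adjusted p 1.00) and Prox1 at 69.7 CPM against 124, 72.1 and 48.6 CPM (-0.19 ± 0.60, edgeR adjusted p 1.00). The duodenum plates spanned the jejunum value for these 2 genes, and the Prox1 change was 0.17 without plate 1. Of 19329 genes 0.0% passed, 819 reached an unadjusted p below 0.05, while DESeq2 called 731 but no member. Without plate 2, 10 genes passed. The jejunum had 1 plate, so tissue and plate cannot be told apart. Hormone cells were 16 of its 63 cells, and 3 of 72, 23 of 83 and 10 of 72 in duodenum plates 1, 2 and 3.

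By age, plate 1 at 39 weeks was compared with plates 2 and 3 at 12 weeks. Isl1 was listed at 0 in all 72 cells of plate 1. A count of 0 there allows up to 0.126 CPM (3 counts in the plate), if Isl1 was counted as in the other plates. Gip and Gcg were among the 7 genes at 0 in that plate, and its 3 hormone cells held Ghrl or Cck. The fitted log2 fold change of -14.8 ± 2.06 (edgeR, unadjusted p 0.000536, adjusted p 0.381) depends on how a 0 is handled and is no bound. Etv1 (-0.40 ± 0.58, edgeR adjusted p 0.816) and Prox1 (0.90 ± 0.47, edgeR adjusted p 0.661) did not pass either. Of 18480 genes 0.0% passed, 1412 reached an unadjusted p below 0.05, while DESeq2 called 920, Isl1 among them. With no filter on low counts 226 passed, again with Isl1.

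Other genes of the pathway were read in the same fit of hormone cells without Tph1 against Tph1-high cells. Of 11542 genes outside the hormones, Tph1 and the 3 members, 7 passed (0.0606%), 2 higher (0.0173%) and 5 lower in hormone cells, and 765 (6.63%) reached an unadjusted p below 0.05. Over all genes tested the median log2 fold change was -0.15. Cofactors and relatives of LIM-homeodomain proteins, which bind or compete for partners of Isl1, had 8 of 17 genes tested, 0 past the threshold and a median log2 fold change of -1.21. Ssbp2, a partner of LIM-domain complexes, was at -4.06 ± 1.57 (edgeR adjusted p 0.739) and Ldb1, the LIM-domain binding protein, at -0.52 ± 1.02 (edgeR adjusted p 0.962). ETS factors and ERK feedback genes had 13 of 17 tested, 0 past the threshold and a median of -0.97. Neither Etv4 (-0.97 ± 0.61, edgeR adjusted p 0.901) nor Etv5 (-1.11 ± 1.00, edgeR adjusted p 0.927), the close relatives of Etv1, passed. Prox2, the relative of Prox1, was too low to test.

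Of 29 other enteroendocrine factors tested, 1 passed and was lower in hormone cells. That was Lmx1a, a LIM-homeodomain factor of serotonin cells, at 17.5, 6.98 and 11.2 CPM against 1101, 840 and 780 CPM in plates 2, 3 and 4 (log2 difference -6.29 ± 0.36, edgeR adjusted p 0.0266). Pax6 was at 408, 299 and 352 CPM against 67.4, 17.0 and 19.9 CPM (3.67 ± 0.49, edgeR adjusted p 0.235). It did not pass, though the sums of the classes did not overlap.

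The list of genes for storage and processing of hormones also held the carrier genes Rbp4 and Fabp5. It had 14 of 14 tested, 2 higher and 1 lower, with a median log2 fold change of -0.06. The 2 higher were these carriers, so no other gene of the list passed as higher. Rbp4, a retinol carrier, was at 1308, 1513 and 794 CPM against 29.1, 12.4 and 9.04 CPM (6.32 ± 0.44, edgeR adjusted p 0.0326). Fabp5, a fatty-acid binding protein, was at 2055, 1001 and 1228 CPM against 104, 31.9 and 38.0 CPM (4.80 ± 0.31, edgeR adjusted p 0.0266). Chga was lower, at 1237, 479 and 1448 CPM against 8954, 3473 and 10633 CPM (-2.83 ± 0.21, edgeR adjusted p 0.0366). Scg2, the secretogranin II gene, was at 1801, 2381 and 1642 CPM against 10.3, 10.7 and 82.0 CPM (6.62 ± 0.91, edgeR adjusted p 0.249), and Chgb at 16673, 8094 and 13035 CPM against 93525, 59783 and 69162 CPM (-2.56 ± 0.27, edgeR adjusted p 0.113). These 2 did not pass. Outside the lists 3 genes passed, all lower in hormone cells: Ly6a (-6.94 ± 0.43), Afp, the alpha-fetoprotein gene (-7.94 ± 0.51), and Pappa2, a protease gene (-8.81 ± 0.62). Leaving out plate 2 or plate 3 took the count of calls from 7 to 0, and leaving out plate 4 took it to 2.

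Nutrient sensors and channels of peptide cells had 14 of 17 genes tested and 0 past the threshold, with a median log2 fold change of 5.50, and 8 higher and 2 lower at an unadjusted p under 0.05. Slc5a1, the sodium-glucose transporter, was at 56.2, 172 and 226 CPM against 7.47, 24.95 and 32.4 CPM (2.86 ± 0.41, edgeR adjusted p 0.263). Scn3a, a sodium channel, was at 93.7, 253 and 77.1 CPM against 1392, 1041 and 1088 CPM (-3.23 ± 0.47, edgeR adjusted p 0.263). Of 7 serotonin-cell genes tested 0 passed and 6 were lower at an unadjusted p under 0.05. Tac1, the substance P gene, was at -3.44 ± 0.50 (edgeR adjusted p 0.263) and Slc18a1, a vesicular monoamine transporter, at -2.21 ± 0.34 (edgeR adjusted p 0.288).

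**Figure D5:**
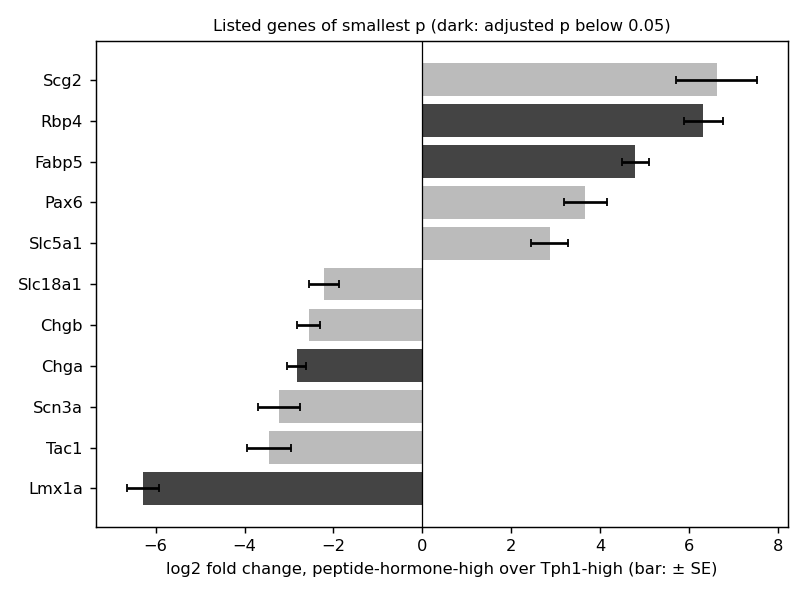
Fitted log2 fold change, with its SE as a bar, of 11 of the 12 listed genes of smallest p between hormone cells without Tph1 and Tph1-high cells, with genes past an adjusted p of 0.05 in dark grey. The 4 that passed are Rbp4 and Fabp5 on the higher side and Chga and Lmx1a on the lower side.

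The genes whose pattern over 290 cells was most like each member were found by Pearson correlation of log2(CPM + 10), with plate means removed, among 11018 genes with at least 5 counts in at least 10 cells. These cells share 4 libraries and differ in depth, and the values are a description. For Isl1 the nearest included Scgn (0.61), Nudt4 (0.56), Abcc8 (0.51), Rbp4 (0.48), Cxxc4 (0.47), Scg2 (0.45) and Pax6 (0.45), and the lowest were Gpx2 (-0.38), Tph1 (-0.32) and Lmx1a (-0.30). Scgn encodes the calcium sensor secretagogin and Abcc8 the sulfonylurea receptor of beta-cell channels. With the 2 large classes left out, Cxxc4 (0.53), Nudt4 (0.48) and Scgn (0.44) kept their likeness in the other 147 cells, while Rbp4 (-0.06) and Scg2 (-0.02) did not.

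For Etv1 the 8 nearest were Ffar1 (0.55), a receptor for long-chain fatty acids, Cck (0.49), Lect2 (0.47), Gcg (0.46), Sct, the secretin gene (0.46), Scg2 (0.44), Rbp4 (0.41) and Tm4sf20 (0.41). The lowest were Ifitm3, Rpl39-ps and Rps19-ps6 (each -0.34), and the last 2 are ribosomal pseudogenes whose reads may come from their parent genes. In plate 4 the correlation with Ffar1 was 0.81 and in plate 1, which had few hormone cells, 0.14. With the classes left out none of the 8 remained among the nearest. For Prox1 the values were low throughout, with Lin9 (0.30), Ghrl (0.29), Jpt1 (0.26), Fxyd3 (0.25), Phldb1 (0.25), Btbd17 (0.24), Gramd1a (0.24) and Sox4 (0.24) nearest, and Me2, Vim and Tac1 (each -0.25) lowest, and in sparse counts such values single out no gene.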

How the data were processed

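The deposited file gives raw counts for 29161 genes in 290 of the 368 sorted cells, already filtered by the authors. The submitters' processing notes name bcl2fastq 2.17.1.14, cutadapt 1.10, Bowtie2 2.2.8, STAR 2.5.3a, UMI-tools 0.4.4, HTSeq 0.6.1 and mm10, with no roles. As 27.9% of values above 0 equal 1 and the largest is 643177, PCR copies were taken as possible. Columns were matched to samples by plate number, and 0 were left unused.

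CPM is counts per 1000000 of a cell's total, or of a summed class. The members, lists and thresholds were chosen with earlier results of these data known. Raw counts were summed per plate and class, for plates with at least 3 cells of each class, and fitted with edgeR 4.0.16 in R 4.3.3 (TMM, filterByExpr, quasi-likelihood test, plate as a block within plates, adjusted p threshold 0.05). The members' rows of the fit on which they were chosen are not reported as tests. DESeq2 1.42.0, no filter, library totals, other thresholds and each plate left out were alternatives. The fits were run on simulated data with known changes, with the same spread for every gene and no plate differences. Real sums need not vary in that way, so the simulation does not show how the fits perform on these data.

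Each member is named in every comparison, with the 12 listed genes of smallest p where fewer than 6 listed genes passed, up to 5 unlisted genes a direction that passed and moved alike in every plate, and the 8 nearest and 3 least like genes. 1 gene that this rule names is not reported here. Genes singled out otherwise are marked. Presence meant 5 counts or, as an added rule, 50 CPM. No clusters and no doublet caller were used, since 1 cell was sorted per well. Of 92 well names, 88 recur on 2 or more plates, with a library of their own each. Interval bounds are exact binomial ones at 95%. Same-numbered classes of a plate were paired because they share its library.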

Additional observations from a re-analysis of the deposited data

Results flagged for a closer look

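Prox1 differed in direction with Neurog3 between plates. In hormone-poor cells the log2 ratio of Neurog3-high over Neurog3-low sums was -0.84 in the jejunum plate (74.2 against 133 CPM), while both duodenum plates in the fit, plates 2 and 3, had a ratio above 0. Plate 1, a duodenum plate left out of the fit for having 2 Neurog3-high cells, went the way of the jejunum plate (59.1 against 160 CPM), so the directions did not divide by tissue. The jejunum value rests on 3 Neurog3-high cells, and the difference was not tested.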

How the results depend on the processing

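Over all results and alternatives 158 values stayed the same, 39 moved, 3 reversed and 2 became stronger. A ratio or level was the same within its SD over plates, and a share inside its interval. A gene count was the same within a fixed fold, and a member's change with its direction and call unchanged. A moved value need not change direction. The cause of each change was not tested. DESeq2 called 749 genes between hormone and Tph1-high cells, 388 by Neurog3, 314 by goblet or Paneth markers, 731 by tissue and 920 by age, against 7, 0, 2, 0 and 0 with edgeR. With no filter on low counts these were 6 by goblet or Paneth markers, 9 by tissue and 226 by age. Leaving out 1 plate gave 0 to 2 calls between hormone and Tph1-high cells, 1 to 2 by goblet or Paneth markers and 0 to 10 by tissue. Etv1 reversed by goblet or Paneth markers without plate 1 (0.98) or plate 2 (0.61), with -1.46 to 0.98 over plates left out, and Prox1 by tissue without plate 1 (0.17), with -0.44 to 0.17. Isl1 by age passed with DESeq2 (-13.85) and with no filter (-14.82). The age comparison was not run without single plates, which leaves no spread to estimate.

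Without the replicate block the calls were 10 between hormone and Tph1-high cells, 0 by Neurog3 and 1 by goblet or Paneth markers, where marker genes at 500 CPM also gave 1. No paired analysis was possible for whole plates because a tissue or age had no shared plate.

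The Isl1 log2 ratio was 7.32 at a hormone minimum of 500 CPM, 5.28 with a pseudocount of 10, 5.64 from medians over cells and 7.36 with cells thinned to 100000 counts. At 1 count or more, 76.9% of hormone and 40.4% of Tph1-high cells held Isl1, 69.2% and 55.3% Etv1, and 69.2% and 56.4% Prox1, so single counts separate the classes less. Thinned, at 0.5% of the plate's counts or at 50 CPM, Isl1 was in 0 Tph1-high cells (0.0%). Grouped by highest hormone, which was added after seeing the data, Cck cells had 228 CPM of Isl1 and 377 of Etv1, and Gip cells 57.1 of Prox1. Of the 8 nearest genes, rank correlation kept 5 for Isl1, 1 for Etv1 and 2 for Prox1, leaving out both classes kept 4, 0 and 2, and a pseudocount of 1 kept 5 for Prox1.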
